A study of Mus musculus with 26 samples.

Results

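The genes described here are 7 ligands and 1 receptor of the CXC chemokine system that draws neutrophils into tissue: Cxcl1, Cxcl2, Cxcl3, Cxcl5, Cxcl15, Ppbp, Pf4 and Cxcr2. They were chosen by name, as every probe on the array whose RefSeq accession maps to one of them, and each had a single probe by this match. They are 8 of 20660 genes with a symbol on the array. Expression was measured in lungs of 25 MutaMouse mice, a transgenic line with a mutation reporter. Their age is given as about 12 weeks, and whether this was at the first dose or at sampling is not settled here. The animals fell into 5 groups of 5. The NM 401 high group received 128 µg per mouse of NM 401, a multiwalled carbon nanotube, and the NM 401 low group 42.7 µg. The Mitsui high group received 128 µg per mouse of the nanotube Mitsui XNRi-7 and the Mitsui low group 42.7 µg. All 4 exposed groups were given nanotubes in mouse serum by intratracheal instillation in 4 weekly doses. Whether an amount is per instillation or in total is not stated. The controls are called vehicle controls in the design and are described as gavaged with olive oil in the treatment protocol, so their route and vehicle, which may both differ from those of the exposed groups, are not settled. Lungs were taken 56 days after the last dose, after exsanguination, and RNA came from random sections of whole lung.

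Each of the 26 arrays set an animal's lung RNA, in Cy5, against universal mouse reference RNA, in Cy3, and every level below is a log2 ratio of lung over reference RNA. A ratio is comparable between animals for the same probe, and no level is set against that of another gene. Between 47.2% and 63.2% of spots per array were well above background in Cy5. The labels call the animals female and the design calls them male. A probe for Xist was above background in 24 of 25 animals, for Ddx3y and Kdm5d in 0 and for Uty in 2. Sftpc, Scgb1a1 and Ager, which mark alveolar type 2, club and alveolar type 1 cells of the lung, were above background in 25 of 25. Mitsui low animal 5 was run on 2 arrays, on slides 3 and 4, and these were averaged. Differences are compared with limma's linear model over all 25 animals, with 1 mean per group, and p-values are adjusted by Benjamini-Hochberg over 22950 features. A difference is called when its adjusted p is under 0.05, errors of differences are standard errors of that model, and errors of levels are SDs with n = 5. The number of animals limits the precision.

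As background, CXC chemokines with the motif glutamate-leucine-arginine ahead of the CXC cysteines bind CXCR2 on neutrophils and direct them out of the blood towards the site where the chemokine is made. In the lung, Cxcl1, Cxcl2, Cxcl3 and Cxcl5 are induced by interleukin-1, tumour necrosis factor, interleukin-17 and microbial products, mainly through the transcription factor NF-kB. Cxcl5 is made largely by airway and alveolar epithelium, Cxcl1 by epithelium, endothelium, fibroblasts and macrophages, and Cxcl2 largely by macrophages and neutrophils. Cxcl15, known as lungkine, is made steadily by lung epithelium and was described in mice. Ppbp and Pf4 are products of megakaryocytes stored in the alpha granules of platelets. Ppbp is the precursor of the CXCR2 ligand CXCL7, while PF4 (CXCL4) lacks the motif. In the RefSeq annotation of GRCm38.p6 the 7 ligand genes lie next to each other on chromosome 5, in the order Cxcl5, Ppbp, Pf4, Cxcl3, Cxcl15, Cxcl1 and Cxcl2, and Cxcr2 lies on chromosome 1.

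The promoters of Cxcl1, Cxcl2 and Cxcl3 share a run of letters not found in the windows of Cxcl15, Ppbp, Pf4 and Cxcr2. RefSeq promoter windows of 300 bases, from 250 before to 50 after the start, were at hand for 7 of the 8 genes; Cxcl5 is named only. The longest run present before the start of all 3 is GGGAATTTCCC, of 11 bases, which reads as a textbook NF-kB site. Searched on both strands, these letters occur in 14 of 32817 mouse promoter windows of that length, 0.0427%; their presence in the 3 genes is by construction, and Cxcl15, Ppbp, Pf4 and Cxcr2 had 0 matches. The match runs from 71 to 61 bases before the start in Cxcl1, from 97 to 87 in Cxcl2 and from 73 to 63 in Cxcl3. TATAAA, which 13.6% of all windows hold, was found before the start of Cxcl3, Cxcl15 and Ppbp. A match is a description of the sequence and does not show that a factor binds. The 120 bases just before the start are given for the 3 genes with a match and for the 2 platelet chemokine genes, plus strand, GRCm38.p6, with the match in capitals:
Cxcl1 (chr5:90891125-90891244): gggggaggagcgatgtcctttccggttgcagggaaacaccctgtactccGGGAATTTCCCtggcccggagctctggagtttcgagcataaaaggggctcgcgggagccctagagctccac
Cxcl2 (chr5:90903779-90903898): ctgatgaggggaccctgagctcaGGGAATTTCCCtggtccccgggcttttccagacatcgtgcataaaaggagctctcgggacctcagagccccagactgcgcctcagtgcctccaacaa
Cxcl3 (chr5:90785981-90786100): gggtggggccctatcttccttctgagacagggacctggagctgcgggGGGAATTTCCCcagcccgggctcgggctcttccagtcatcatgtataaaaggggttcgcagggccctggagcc
Ppbp (chr5:90768398-90768517): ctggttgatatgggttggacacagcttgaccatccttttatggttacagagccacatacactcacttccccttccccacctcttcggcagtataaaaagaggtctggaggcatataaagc
Pf4 (chr5:90772315-90772434): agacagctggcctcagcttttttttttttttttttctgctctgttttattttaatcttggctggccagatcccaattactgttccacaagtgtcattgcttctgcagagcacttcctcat

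Of the 7 measured members, 4 differed from control in every exposed group. Cxcl5, Cxcl1 and Cxcl3 were higher and Ppbp was lower with both materials at both doses. Cxcl3 was at background in all controls and passed the filter on dim signals through exposed groups alone, so its higher calls are in part fixed by the filter; without it, 2 members were higher in each group and, in Mitsui low, 3. In NM 401 high against control, 3 of 7 members were called higher and 1 lower, where 18.4% of all features were called higher and 16.4% lower (34.8% in either direction). The counts were the same in NM 401 low (8.95% higher and 7.98% lower among all features, 16.9% in either direction) and in Mitsui high (12.7% and 11.1%, 23.8%). In Mitsui low 4 of 7 were higher, with Cxcl15 added, and 1 lower (10.6% and 10.4%, 21.0%). Among all features 6.22% were called higher in all 4 comparisons and 5.74% lower, or 12.0% together. The 4 comparisons share the 5 control animals. The median difference of the 7 members was 0.04 in NM 401 high, 0.13 in NM 401 low, 0.23 in Mitsui high and 0.42 in Mitsui low, with a median of -0.00 over all features in each. Of all called features 52.9%, 52.9%, 53.4% and 50.4% were higher in those 4 groups in that order; with each array centred on its median in place of loess the shares were 89.4%, 83.9%, 86.8% and 83.8% of far fewer calls, and the median of all features shifted by 0.17, -0.11, -0.13 and -0.14. In 4 of 7 members NM 401 high did not overlap control, against 22.5% of all features. The counts were 4 for NM 401 low (11.6%), 3 for Mitsui high (14.6%) and 5 for Mitsui low (16.1%). Cxcl3 is among the members counted in all 4 groups, which is again in part fixed by the filter. Cxcl2, the eighth gene, was too dim to test.

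**Figure D1:**
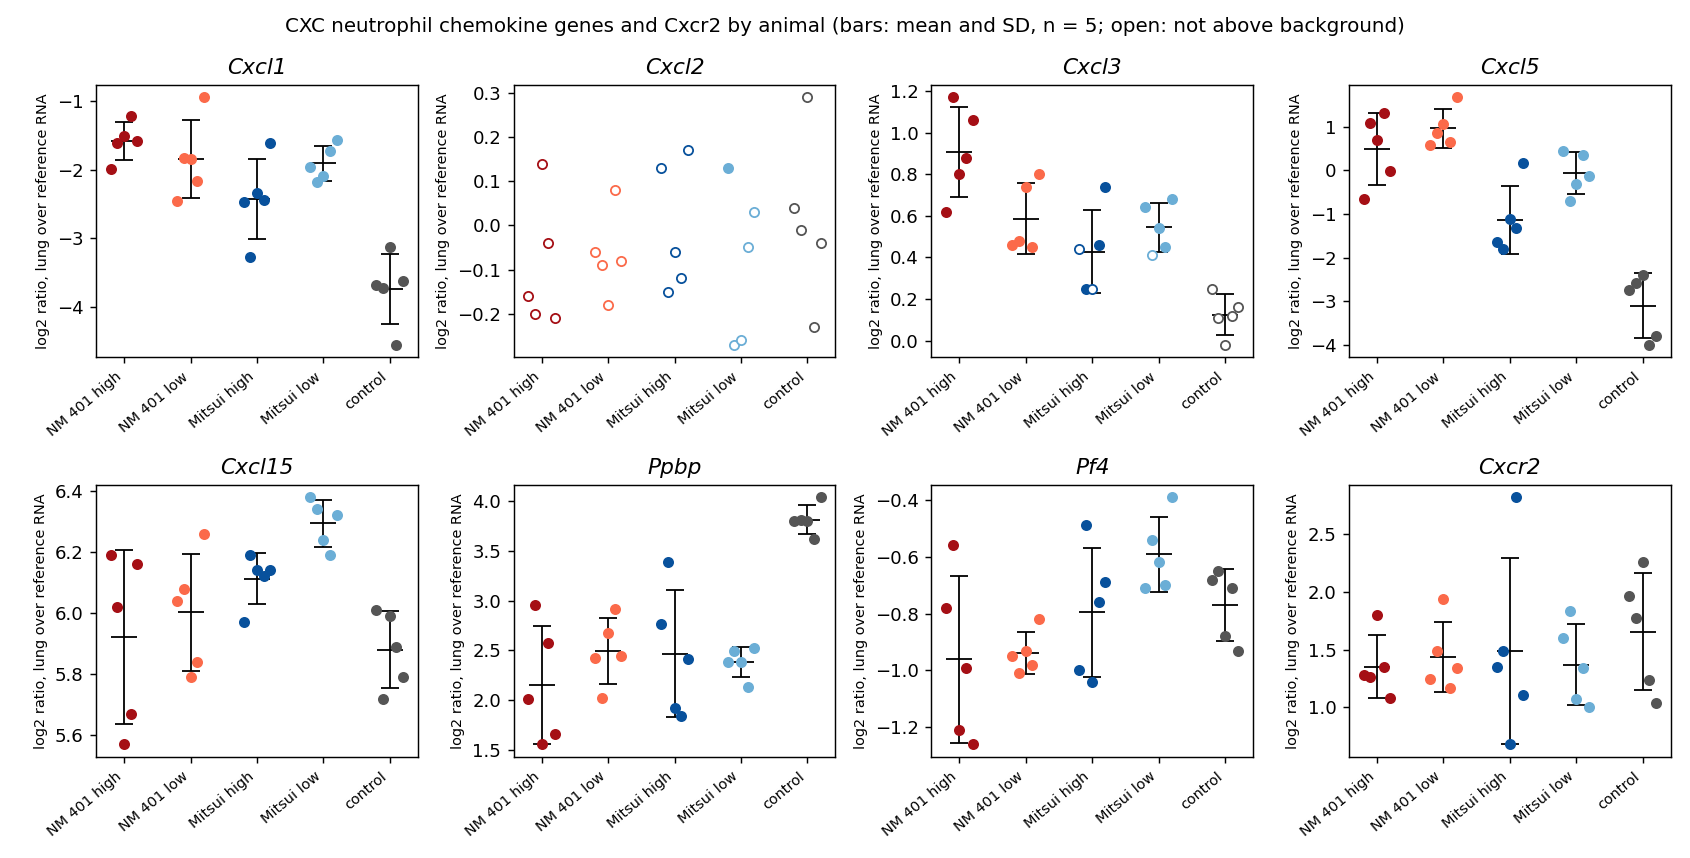
Log2 ratio of lung over reference RNA (y axis, a scale of its own in each panel) for each member, with 1 point per animal in NM 401 high, NM 401 low, Mitsui high, Mitsui low and control lungs from left to right. Bars are mean and SD (n = 5, none drawn for Cxcl2) and open points are animals with lung RNA not well above background: all exposed points of Cxcl5 lie above the control points, all exposed points of Ppbp lie below them, and all control points of Cxcl3 are open.

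Cxcl5, the epithelial neutrophil attractant, had the largest rise. Its log2 ratios were -0.66, 1.08, 0.70, 1.32 and -0.01 in NM 401 high animals, 0.57, 0.86, 1.05, 0.65 and 1.67 in NM 401 low, -1.65, -1.79, -1.12, -1.33 and 0.17 in Mitsui high and 0.45, -0.71, -0.31, 0.36 and -0.14 in Mitsui low, against -2.75, -2.57, -2.39, -3.99 and -3.79 in control. Every exposed animal was above every control; Mitsui high animal 5 stood above the other 4 of its group, and controls 4 and 5 were the lowest of all. The difference from control was 3.58 ± 0.39 in NM 401 high, 12.0-fold (95% interval 6.86 to 20.9; limma adjusted p = 1.96e-07). It was 4.06 ± 0.39 in NM 401 low, 16.6-fold (9.52 to 29.0; adjusted p = 3.63e-07). With Mitsui XNRi-7 Cxcl5 rose 3.87-fold at the high dose (2.22 to 6.77; adjusted p = 0.000742) and 8.15-fold at the low dose (4.66 to 14.2; adjusted p = 7.91e-06). All slides showed the rise, with within-slide differences of 1.73 to 4.65 in NM 401 high on 3 slides, and over 4 slides of 3.28 to 5.04 in NM 401 low, 1.08 to 3.44 in Mitsui high and 1.93 to 3.93 in Mitsui low. With each array centred on its median in place of loess, the Mitsui high difference was 1.74 and no longer called. With Feature Extraction ratios the differences were larger, 4.35 in NM 401 high, 4.86 in NM 401 low, 2.60 in Mitsui high and 3.76 in Mitsui low, all called. In whole lung RNA, more cells of a type and more RNA per cell cannot be told apart.

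Cxcl1, the mouse chemokine known as KC, rose less than Cxcl5 and in the same 4 groups. Its log2 ratios were -1.98, -1.60, -1.51, -1.21 and -1.58 in NM 401 high, -2.45, -1.82, -1.84, -2.16 and -0.94 in NM 401 low, -2.47, -3.27, -2.34, -2.44 and -1.61 in Mitsui high and -1.96, -2.17, -2.09, -1.73 and -1.56 in Mitsui low, against -3.68, -3.73, -3.13, -4.55 and -3.62 in control. Only Mitsui high overlapped the controls, through animal 2 at -3.27, which lay below control 3 at -3.13. The rise was 4.49-fold in NM 401 high (log2 difference 2.17 ± 0.27, 95% interval 1.61 to 2.73; limma adjusted p = 1.3e-06), 3.73-fold in NM 401 low (adjusted p = 5e-05), 2.49-fold in Mitsui high (adjusted p = 0.000979) and 3.58-fold in Mitsui low (adjusted p = 3.98e-05). Within slides the log2 difference ran from 1.14 to 3.16 in NM 401 high, 1.49 to 2.71 in NM 401 low, 0.79 to 2.04 in Mitsui high and 1.32 to 2.88 in Mitsui low. Median centring left the Mitsui differences at 1.11 at the high dose and 1.60 at the low dose, neither called, while Feature Extraction ratios gave 2.88 in NM 401 high, 2.58 in NM 401 low, 1.89 in Mitsui high and 2.48 in Mitsui low, all called.

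Cxcl3, a close relative of Cxcl1 and Cxcl2, was dim, and rose in lungs of exposed animals above controls that were at background. Its lung signal was well above background on 5 of 5 arrays of NM 401 high, 5 of 5 of NM 401 low, 3 of 5 of Mitsui high and 4 of 6 of Mitsui low, and on 0 of 5 control arrays. Its log2 ratios were 0.62, 1.17, 0.80, 0.88 and 1.06 in NM 401 high, 0.46, 0.48, 0.74, 0.45 and 0.80 in NM 401 low, 0.44, 0.25, 0.25, 0.46 and 0.74 in Mitsui high and 0.64, 0.41, 0.54, 0.45 and 0.68 in Mitsui low, against 0.25, 0.11, -0.02, 0.12 and 0.16 in control. The NM 401 high animals reached highest, and 2 Mitsui high animals sat at the level of control 1. Since the controls were at background, each exposed group's mean normalised Cy5 signal was divided by a floor for the control arrays. The floor was taken per control array as the lowest signal of any probe well above background or, if higher, that of Cxcl3 itself. Mean Cxcl3 was 1.67-fold above the floor in NM 401 high, 1.37-fold in NM 401 low, 1.15-fold in Mitsui high and 1.28-fold in Mitsui low. These folds are point estimates without a sampling error, so they are not minimum differences between the groups. In both Mitsui groups some exposed arrays were at background too, so there the fold is not a lower bound. Without dye swaps the folds are open to dye bias.

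The fitted log2 differences of Cxcl3 were 0.78 ± 0.10 in NM 401 high (limma adjusted p = 2.61e-06), 0.46 ± 0.10 in NM 401 low (adjusted p = 0.00319), 0.30 ± 0.10 in Mitsui high (adjusted p = 0.0337) and 0.42 ± 0.10 in Mitsui low (adjusted p = 0.00464). The probe passed the filter on dim signals only through exposed groups, so a higher value there is in part fixed by the filter. The reference channel was well above background on 0 of 26 arrays, so these ratios have a denominator at background throughout. The size depends on the background correction: with a normexp offset of 10 the 4 differences were 1.40, 0.75, 0.61 and 0.80 in the same order, and the ratios of Agilent's Feature Extraction gave 2.54, 2.24, 1.28 and 1.57. The 2 arrays of Mitsui low animal 5 read 0.39 and 0.98, which is further apart than the Mitsui groups lie from control. In Mitsui high the call was lost without Mitsui high animal 1, 4 or 5 or without control 2, 3 or 4, where the difference was between 0.23 and 0.30, and under 5 of 14 other settings. Median centring also ended the calls in NM 401 low (0.52) and Mitsui low (0.50).

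Cxcl2, known in mice as MIP-2, was not measurable. Its lung signal was well above background on 1 of 26 arrays, that of Mitsui low animal 1, where the spot median was 100 against a local background of 71. Across all arrays the spot medians were 74 to 105.5 and the local backgrounds 68 to 76, so no fold is given. Its promoter holds the same GGGAATTTCCC letters as those of Cxcl1 and Cxcl3, printed above.

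Cxcl15, the lungkine gene, was called in Mitsui low alone. Its log2 ratios were 6.19, 6.02, 5.57, 5.67 and 6.16 in NM 401 high, 6.04, 6.08, 5.79, 5.84 and 6.26 in NM 401 low, 5.97, 6.19, 6.14, 6.12 and 6.14 in Mitsui high and 6.38, 6.34, 6.24, 6.19 and 6.32 in Mitsui low, against 6.01, 5.72, 5.99, 5.89 and 5.79 in control. Mitsui low alone lay wholly above the controls, 1.34-fold higher (log2 difference 0.42 ± 0.11; limma adjusted p = 0.006), with within-slide differences of 0.28 to 0.56. It was 0.14 and not called with median centring. The difference was 0.04 in NM 401 high (95% interval -0.17 to 0.26; adjusted p = 0.793), 0.13 in NM 401 low (-0.09 to 0.34; 0.472) and 0.23 in Mitsui high (0.02 to 0.45; 0.113). Alveolar type 2 markers, genes of the surfactant-making epithelial cell, rose in 9 of 14 genes in NM 401 high, 5 in NM 401 low, 7 in Mitsui high and 8 in Mitsui low, and 0 fell. Among all features 18.4%, 8.95%, 12.7% and 10.6% were called higher in those groups. The list mean of the alveolar type 2 markers was 5.18 to 5.50, 5.09 to 5.37, 5.13 to 5.34 and 5.33 to 5.42 in the same groups, against 4.80 to 5.08 in control. The leading changes in NM 401 high were Hc at 0.88 ± 0.14, Lamp3 at 0.86 ± 0.11, Napsa at 0.73 ± 0.11 and Sftpd at 0.51 ± 0.09. With group means removed, Cxcl15 followed this list mean over the 25 animals (Pearson r = 0.66, adjusted permutation p = 0.0489 over 28 relations of members with marker lists; Spearman rho = 0.64, adjusted permutation p = 0.0592; r = 0.58 without the 2 farthest animals, and 0.61 to 0.89 within slides). The part of these cells in the Mitsui low value was not tested.

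**Figure D2:**
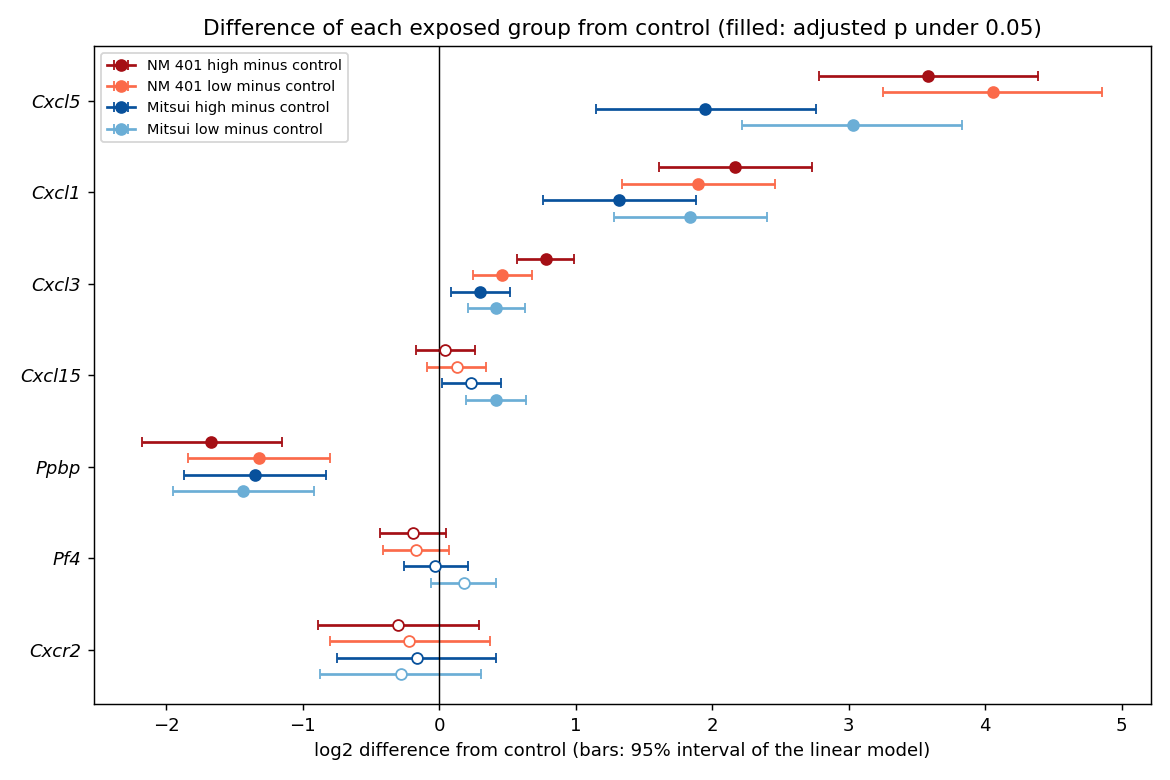
Log2 difference of each exposed group from control (x axis) for the 7 measured members, in the order NM 401 high, NM 401 low, Mitsui high and Mitsui low from top to bottom within each gene. Bars are 95% intervals of the linear model and filled points have an adjusted p under 0.05: the 4 differences of Ppbp lie between -1.67 and -1.32, while those of Pf4 lie between -0.19 and 0.18.

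The platelet chemokine genes did not share a call: Ppbp fell in all 4 exposed groups and Pf4 was called in 0 of 4. Ppbp had log2 ratios of 2.01, 2.95, 1.56, 2.57 and 1.66 in NM 401 high, 2.42, 2.02, 2.67, 2.91 and 2.44 in NM 401 low, 2.76, 3.39, 1.92, 1.84 and 2.41 in Mitsui high and 2.38, 2.49, 2.38, 2.13 and 2.52 in Mitsui low, against 3.80, 3.81, 3.80, 3.62 and 4.04 in control. The 5 controls had an SD of 0.15 and lay above all 20 exposed animals, of which Mitsui high animal 2 came nearest. Ppbp was 3.17-fold lower in NM 401 high (95% interval 2.21 to 4.54; limma adjusted p = 1.44e-05), 2.50-fold lower in NM 401 low (1.74 to 3.58; adjusted p = 0.000855), 2.55-fold lower in Mitsui high (1.78 to 3.65; adjusted p = 0.000382) and 2.70-fold lower in Mitsui low (1.89 to 3.87; adjusted p = 0.000252). The log2 difference was negative on every slide, from -1.78 to -1.51 in NM 401 high, -1.59 to -0.96 in NM 401 low, -1.88 to -0.24 in Mitsui high and -1.68 to -0.85 in Mitsui low. With median centring it stayed between -1.54 and -1.38 in NM 401 low and both Mitsui groups but was no longer called there. The reference channel was well above background for Ppbp on 13 of 26 arrays, so part of its ratios have a denominator at background.

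Pf4 had log2 ratios of -0.78, -0.56, -1.21, -0.99 and -1.26 in NM 401 high, -0.95, -1.01, -0.93, -0.98 and -0.82 in NM 401 low, -1.0, -0.49, -1.04, -0.76 and -0.69 in Mitsui high and -0.71, -0.54, -0.62, -0.70 and -0.39 in Mitsui low, against -0.68, -0.65, -0.88, -0.71 and -0.93 in control. Every exposed group overlapped the controls. The difference was -0.19 in NM 401 high (95% interval -0.43 to 0.05; limma adjusted p = 0.226), -0.17 in NM 401 low (-0.41 to 0.07; 0.359), -0.03 in Mitsui high (-0.26 to 0.21; 0.907) and 0.18 in Mitsui low (-0.06 to 0.42; 0.307). Without NM 401 high animal 2 the NM 401 high difference was -0.29 and called, and with median centring it was 0.10. These intervals do not reach the 2.50-fold to 3.17-fold lower values of Ppbp, though the contrast of the 2 genes was not itself tested.

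Markers of platelets and their precursors moved with Ppbp. Of 17 tested, 13 fell in NM 401 high and 12 in each other exposed group, and 0 rose; the median difference was -0.61, -0.48, -0.42 and -0.44 in NM 401 high, NM 401 low, Mitsui high and Mitsui low. In NM 401 high Gp9, a subunit of the von Willebrand factor receptor, fell by 1.48 ± 0.22 on the log2 scale, and Gng11, a G protein gamma subunit, by 1.09 ± 0.12. Treml1, an alpha granule receptor, fell by 1.03 ± 0.23 and Itga2b, integrin alpha IIb of the fibrinogen receptor, by 0.93 ± 0.14. The list mean was 0.85 to 1.20 in NM 401 high, 0.95 to 1.43 in NM 401 low, 1.02 to 1.56 in Mitsui high and 1.01 to 1.22 in Mitsui low, against 1.59 to 1.71 in control, so no exposed animal reached the controls. With group means removed, Ppbp followed this mean across animals (Pearson r = 0.86, adjusted permutation p = 0.00028; Spearman rho = 0.84, adjusted permutation p = 0.00084; r = 0.81 without the 2 farthest animals and 0.39 to 0.99 within slides). For Pf4 the same r was 0.39 (adjusted permutation p = 0.596). Red blood cell transcripts were called lower in 2 of 6 genes in NM 401 high, Slc4a1 at -0.75 ± 0.28 and Alas2 at -0.39 ± 0.11, in 2 in NM 401 low, 1 in Mitsui high and 0 in Mitsui low, where 16.4%, 7.98%, 11.1% and 10.4% of all features were called lower. Their list mean was 3.93 to 4.12, 2.84 to 4.13, 3.76 to 4.34 and 3.94 to 4.50 in those groups, against 4.19 to 4.55 in control. The part of platelet or blood content in the Ppbp result was not tested, and fewer platelets and less Ppbp RNA per platelet cannot be told apart here.

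**Figure D3:**
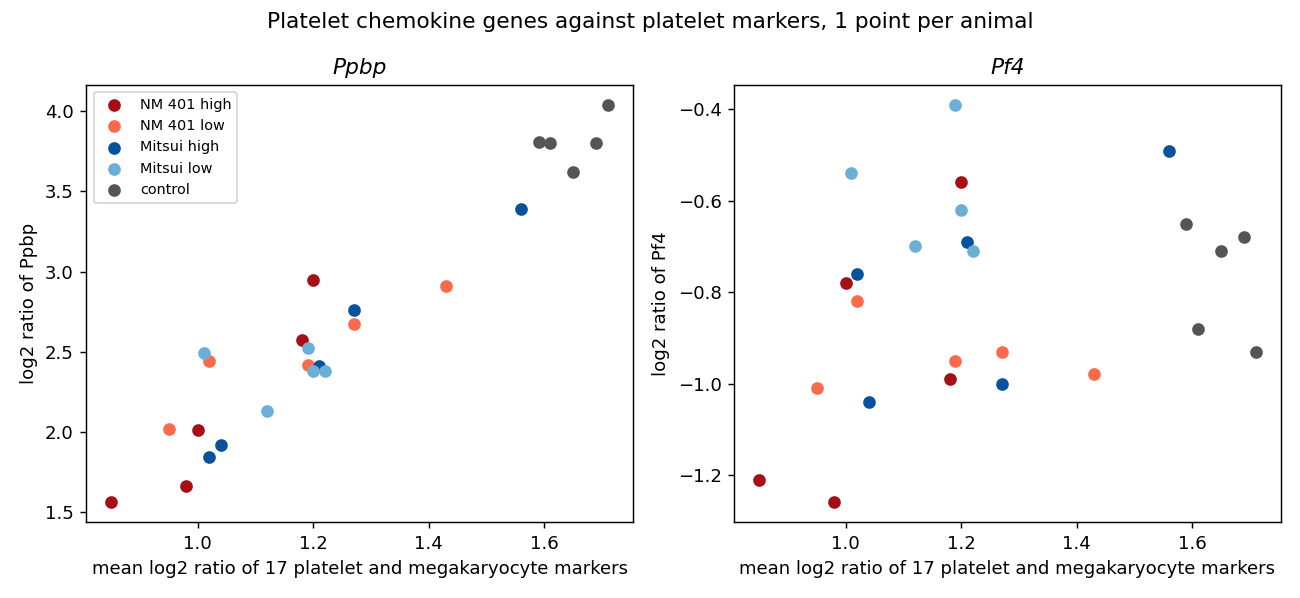
Log2 ratio of Ppbp (left) and Pf4 (right) on the y axes against the mean log2 ratio of 17 platelet and megakaryocyte markers (x axis), 1 point per animal. The 5 controls lie at 1.59 to 1.71 on the x axis and hold the 5 highest Ppbp values, from 3.62 to 4.04, while their Pf4 values of -0.93 to -0.65 lie among those of exposed animals.

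Cxcr2, the neutrophil receptor of the ligands with the glutamate-leucine-arginine motif, was called in 0 of 4 comparisons. Its log2 ratios were 1.28, 1.26, 1.80, 1.35 and 1.08 in NM 401 high, 1.25, 1.49, 1.94, 1.17 and 1.34 in NM 401 low, 1.35, 1.49, 0.68, 2.82 and 1.11 in Mitsui high and 1.60, 1.83, 1.07, 1.34 and 1.00 in Mitsui low, against 1.96, 1.77, 2.26, 1.24 and 1.04 in control. The groups overlapped, and the highest and the lowest value of all both came from Mitsui high. The difference from control was -0.30 in NM 401 high (95% interval -0.89 to 0.29; limma adjusted p = 0.461), -0.22 in NM 401 low (-0.80 to 0.37; 0.68), -0.16 in Mitsui high (-0.75 to 0.42; 0.733) and -0.28 in Mitsui low (-0.87 to 0.31; 0.54). Its reference channel was well above background on 0 of 26 arrays, which leaves the ratio with a denominator at background. Over the 25 animals Cxcr2 was most like Mirt2 (r = 0.89), the cystatin-type gene Stfa2l1 (r = 0.88) and S100a9, a calcium-binding protein abundant in neutrophils (r = 0.82), and with group means removed r was 0.91, 0.91 and 0.85. S100a9 was itself not called, with differences of -0.31, -0.15, 0.11 and -0.08 in NM 401 high, NM 401 low, Mitsui high and Mitsui low (adjusted p 0.373 to 0.867).

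Cxcr1, the other receptor of neutrophil chemokines, differed in its calls from Cxcr2. It rose by 2.40 ± 0.27 in NM 401 high (limma adjusted p = 3.54e-07), 2.56 ± 0.27 in NM 401 low (adjusted p = 1.4e-06), 2.48 ± 0.27 in Mitsui high (adjusted p = 9.25e-07) and 2.26 ± 0.27 in Mitsui low (adjusted p = 3.91e-06), on means of 3.83, 3.99, 3.91 and 3.69 against 1.43 in control. The difference between the receptors was not tested. Neutrophil markers rose in 8 of 16 tested genes in NM 401 high, 1 in NM 401 low, 4 in Mitsui high and 4 in Mitsui low, and 0 fell, with medians of 0.38, 0.09, 0.34 and 0.20. Among all features 18.4%, 8.95%, 12.7% and 10.6% were called higher in those groups, so the 1 of 16 in NM 401 low is no more than this background. The largest in NM 401 high were the iron-binding granule protein gene Ltf at 3.48 ± 0.37, the surface glycoprotein gene Cd177 at 2.29 ± 0.50, Slfn4 at 1.86 ± 0.49 and the decoy interleukin-1 receptor gene Il1r2 at 1.06 ± 0.20. The list mean was 1.86 to 2.26, 1.67 to 1.86, 1.44 to 2.27 and 1.60 to 2.06 in the exposed groups in that order, against 1.00 to 1.71 in control. Ngp, Mpo and Prtn3, granule protein genes of immature neutrophils, did not pass the filter on dim signals. With group means removed, Cxcr2 followed the neutrophil list mean (Pearson r = 0.72, adjusted permutation p = 0.0407; Spearman rho = 0.64, adjusted permutation p = 0.0592; r = 0.67 without the 2 farthest animals and 0.46 to 0.99 within slides). Mitsui high animal 4, the highest in Cxcr2 at 2.82, had the highest list mean at 2.27, and Mitsui high animal 3, the lowest at 0.68, had the lowest exposed list mean at 1.44.

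No member was called between the doses of either material. From the low to the high dose of NM 401, 0 of 7 members were called, where 2.65% of all features were called higher and 1.13% lower (3.78% together), and 0 had groups without overlap (3.66%). For Mitsui XNRi-7, 0 of 7 members and 0.00% of features were called by limma, with 1245 features at an unadjusted p under 0.05, and Cxcl15 alone had no overlap (1.1% of features). Cxcl5 differed by -1.07 in Mitsui high against Mitsui low (95% interval -1.88 to -0.27; limma adjusted p = 0.696) and -0.47 in NM 401 high against NM 401 low (-1.28 to 0.33; 0.572). Cxcl1 differed by -0.52 between the Mitsui doses (-1.08 to 0.04) and by 0.27 between the NM 401 doses (-0.29 to 0.83). Cxcl3 was 0.32 higher in NM 401 high than in NM 401 low (0.11 to 0.53; adjusted p = 0.0835), a difference that was called without NM 401 high animal 1 (0.39), without NM 401 low animal 5 (0.37) and with an offset of 10 (0.66). Ppbp differed by -0.34 between the NM 401 doses (-0.86 to 0.18) and by 0.08 between the Mitsui doses (-0.43 to 0.60). The test of whether the dose step differed between materials called 0 of 7 members and 0.0349% of features (0.0218% higher and 0.0131% lower), with Cxcl3 at 0.44 (0.13 to 0.74; adjusted p = 0.207) and Cxcl1 at 0.79 (-0.00 to 1.58; 0.395).

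Between materials at the high dose, Cxcl5 and Cxcl3 were higher with NM 401. At this dose 2 of 7 members were called higher and 0 lower, against 0.466% and 0.322% of all features (0.789% in either direction). Cxcl3 passed the filter on dim signals through NM 401 high and both low-dose groups and not through Mitsui high. Its higher call may thus be in part fixed by the filter, and without Cxcl3 the count rests on Cxcl5 alone. Cxcl5 was 3.09-fold higher in NM 401 high than in Mitsui high (95% interval 1.77 to 5.41; limma adjusted p = 0.0481) and the fitted log2 difference of Cxcl3 was 0.48 (0.26 to 0.69; adjusted p = 0.0323), with its lung signal above background in 5 of 5 NM 401 high and 3 of 5 Mitsui high animals and no reference signal above background. The ranges of 7 of 7 members overlapped (2.68% of features had no overlap), for Cxcl3 and Cxcl5 through Mitsui high animal 5. Both calls sit close to the threshold. The Cxcl5 call was lost in 19 of 25 fits that left out an animal, with a difference of 1.42 to 1.75 in those 19, and under 8 of 14 other settings, slide as a block among them (1.61; adjusted p = 0.0515); its adjusted p over the 14 ran from 0.0444 to 0.532. Cxcl3 lost its call in 5 of 25 such fits, at 0.43 to 0.50, those without NM 401 high animal 3 or 5 or Mitsui high animal 2, 3 or 4. It also lost it under 6 of 14 other settings, the authors' own values among them (0.47; adjusted p = 0.0663), with an adjusted p of 0.0252 to 0.532 over the 14. Cxcl1 was 1.80-fold higher (1.22 to 2.65; adjusted p = 0.11), and called without Mitsui high animal 5 (1.05). At the low dose 0 of 7 members and 0.00% of features were called by limma between NM 401 and Mitsui XNRi-7, with 1286 features at an unadjusted p under 0.05, and Cxcl5 was 2.04-fold higher in NM 401 low (1.17 to 3.56; adjusted p = 0.756) with no overlap between the groups, as for Pf4 (1.26% of features).

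Ordered by mean, Cxcl1 and Cxcl3 ran NM 401 high, NM 401 low, Mitsui low, Mitsui high and control, and Cxcl5 had NM 401 low ahead of NM 401 high. In this order neighbouring exposed groups of Cxcl1 differed by less than their larger SD. For Cxcl3 the step between the NM 401 groups (0.32) was above it, and for Cxcl5 the step from Mitsui low to Mitsui high (1.07) was. Ppbp was highest in control and the 4 exposed groups below it differed by 0.23 or less between neighbours, within the larger SD. Cxcr2 had no neighbours further apart than their larger SD. For Cxcl15 the step from Mitsui low to Mitsui high (0.18) was above the larger SD (0.08). For Pf4 the step from Mitsui low to control (0.18) was above the larger SD (0.13). Neither of these differences was called.

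Cxcl1 and Cxcl5 varied together between animals of the same group. With group means removed, Pearson r was 0.76 over 25 animals (permutation p = 2e-05, adjusted p = 0.00042 over 21 pairs of members; Spearman rho = 0.71, adjusted permutation p = 0.00336). It was 0.75 without the 2 animals farthest from the median, 0.81 with slide means removed too, and 0.56 to 0.96 within slides. Of the other 20 pairs none passed, with Ppbp and Pf4 at r = 0.58 (adjusted permutation p = 0.197), 0.30 without the 2 farthest animals. Among 14837 genes over all animals, Cxcl1 was most like the NF-kB regulator gene Bcl3 (r = 0.93), Cxcl5 (r = 0.92) and the lipopolysaccharide co-receptor gene Cd14 (r = 0.92). Cxcl5 was most like Cxcl1, the tight junction gene Tjp3 (r = 0.89) and the NADPH oxidase organiser gene Noxo1 (r = 0.87). For Cxcl3 they were the connexin gene Gja1 (r = 0.90), Sting1 (r = 0.89) and the mitochondrial superoxide dismutase gene Sod2 (r = 0.87). Ppbp was most like Gp9 (r = 0.94), the platelet receptor gene Clec1b (r = 0.92) and Gid4 (r = 0.92). The closest to Cxcl15 were Ccnd1 (r = 0.81), Lpcat1, an enzyme of surfactant lipid synthesis (r = 0.80), and Polr2l (r = 0.79), and to Pf4 Polr3g (r = 0.72), Naa35 (r = 0.69) and Pabpc4 (r = 0.68). These likenesses were picked as the highest of all genes, carry no test and include the difference between exposed and control animals.

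**Figure D4:**
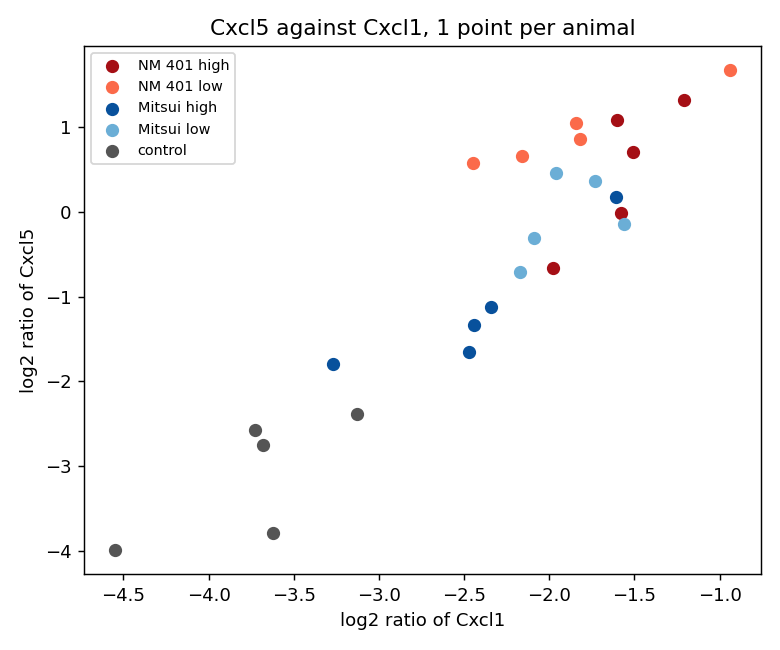
Log2 ratio of Cxcl5 (y axis) against that of Cxcl1 (x axis), 1 point per animal, with groups by colour. The controls lie at the lower left with Cxcl1 of -4.55 to -3.13 and Cxcl5 of -3.99 to -2.39, and within the exposed groups animals with more Cxcl1 tend to have more Cxcl5.

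Genes listed as acting before the chemokines moved in part, and whether they acted before them in these lungs was not tested. The counts of this list and of those that follow stand against 18.4% of all features called higher and 16.4% lower in NM 401 high, 8.95% and 7.98% in NM 401 low, 12.7% and 11.1% in Mitsui high and 10.6% and 10.4% in Mitsui low. Of 13 tested cytokine and receptor genes listed as upstream of the ligands, 7 rose and 2 fell in NM 401 high. In NM 401 low 5 rose and 0 fell, and in each Mitsui group 5 rose and 1 fell. The medians were 0.37, 0.13, 0.14 and 0.09 at NM 401 high, NM 401 low, Mitsui high and Mitsui low. Interleukin-6 (Il6) rose by 2.15 ± 0.21 in NM 401 high, the alarmin Il33 by 2.03 ± 0.20, the interleukin-1 receptor antagonist Il1rn by 1.62 ± 0.15 and Tnf by 1.38 ± 0.13. Il17a, Il17f, Il17c, Il23a and Csf3 were on the array and did not pass the filter on dim signals. Among 17 NF-kB feedback and target genes, 10 rose in each exposed group, and 1 fell except in NM 401 low, where 0 fell. The median difference was 0.64 in NM 401 high, 0.39 in NM 401 low, 0.34 in Mitsui high and 0.36 in Mitsui low. The leading members in NM 401 high were Tnfaip2 (1.11 ± 0.15), Bcl3 (1.1 ± 0.11), the inhibitor gene Nfkbie (1.09 ± 0.10) and the deubiquitinase gene Tnfaip3 (0.91 ± 0.12). The list mean was 0.49 to 0.77, 0.37 to 0.60, 0.37 to 0.58 and 0.42 to 0.54 in the exposed groups in that order, against 0.12 to 0.26 in control.

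Genes that act downstream of the receptor, in signalling and neutrophil migration, rose in 10 of 20 and fell in 3 in NM 401 high. In NM 401 low 7 rose and 0 fell, in Mitsui high 7 rose and 1 fell, and in Mitsui low 8 rose and 1 fell. In NM 401 high the leukocyte integrin beta 2 gene Itgb2 rose by 2.14 ± 0.18, the phosphoinositide 3-kinase gamma subunit gene Pik3r5 by 1.78 ± 0.14, the exchange factor gene Vav1 by 1.37 ± 0.20 and the kinase gene Fgr by 0.96 ± 0.15. Macrophages express many of these genes too, and many macrophage markers also differed from control in the exposed groups. Of 14 tested, 10 rose and 1 fell in NM 401 high, 9 rose and 0 fell in NM 401 low, 7 rose and 1 fell in Mitsui high and 8 rose and 1 fell in Mitsui low. Trem2, a lipid-sensing receptor gene, rose by 4.65 ± 0.29 in NM 401 high, the scavenger receptor gene Msr1 by 3.37 ± 0.30, the complement gene C1qb by 2.20 ± 0.22 and the Fc receptor gene Fcgr1 by 1.99 ± 0.37. The macrophage list mean was 3.25 to 3.56 in NM 401 high, 2.78 to 3.21 in NM 401 low, 2.71 to 3.24 in Mitsui high and 3.06 to 3.19 in Mitsui low, against 1.92 to 2.21 in control. With group means removed it had r = 0.24 with Cxcl1, 0.06 with Cxcl5 and 0.44 with Cxcl3 (adjusted permutation p = 0.811, 0.932 and 0.499), and its part in their rise was not tested.

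Among other CXC genes, 6 of 14 rose and 0 fell in NM 401 high, 3 and 0 in NM 401 low, 5 and 0 in Mitsui high and 4 and 2 in Mitsui low. The interferon-induced T cell attractants Cxcl10 and Cxcl9 rose by 3.44 ± 0.60 and 2.04 ± 0.41 in NM 401 high, and Ackr1, an atypical chemokine receptor that binds several of the ligands described here, by 1.26 ± 0.22. Genes next to the ligand cluster on chromosome 5 had these calls: of 10 tested, 2 rose and 1 fell in NM 401 high, 3 rose in NM 401 low and 2 in each Mitsui group. In NM 401 high this is near the 18.4% higher and 16.4% lower among all features. At the high dose of NM 401 the epidermal growth factor family genes Areg and Ereg rose by 1.20 ± 0.21 and 1.09 ± 0.17, while Mthfd2l, which lies next to Cxcl2, fell by 0.34 ± 0.08; Epgn did not pass the filter on dim signals. Airway and alveolar type 1 markers moved in the same animals. Of 11 club and ciliated markers 4 rose and 3 fell in NM 401 high, 3 and 0 in NM 401 low, 5 and 1 in Mitsui high and 4 and 0 in Mitsui low. This list went both ways in NM 401 high. The largest changes there were rises of the mucin gene Muc5b (3.61 ± 0.25) and Scgb3a1 (2.32 ± 0.29), and the 3 that fell changed less. Of 9 alveolar type 1 markers 1 rose and 7 fell in NM 401 high, 4 fell in NM 401 low and 5 in each Mitsui group, led in NM 401 high by Cav1 (-1.10 ± 0.13) and Clic5 (-0.89 ± 0.12). Their part in the ligand results was not tested.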

How the data were processed

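Lung RNA of 25 animals was measured on 26 Agilent 2-colour arrays (design build mm9 per the file headers). The deposited scanner files hold median spot and background intensity and log10 ratios made by Agilent Feature Extraction 11.0.1.1, per the file headers, and flags of 0 or 1, which are of another kind. The authors also deposited a table of log2 ratios whose method is not given in the sources used here. Its columns followed the ratios computed here over kept probes (r 0.993 to 0.999, slopes 1.006 to 1.082) with medians of -0.04 to -0.02, which settles scale, centring and direction.

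From the median signals, normexp (offset 50) and loess were run in limma 3.58.1 under R 4.3.3. Outlier spots (0.461%) were left out. Probes were kept whose Cy5 signal exceeded background, by the scanner's flag, in 4 or more animals of any group: 30466 of 55681 probes, giving 22950 features, 14838 with a symbol, by the probe of highest mean intensity. Symbols came from RefSeq accessions. Group means were fitted to all animals (20 residual and 3.76 prior degrees of freedom). Correlations used permutation within groups, with 100000 resamples. The fit was tested on simulated data. Figures used matplotlib 3.10.9.

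All 8 members are named. From each gene list, up to 4 genes called in NM 401 high with the largest change are named, and for each member the 3 most alike genes. Members and lists were chosen with earlier results of these data known. The design calls the samples of a group biological replicates. The limma p-values set differences of group means against the spread between animals within groups, taken over all groups. Slide was not in the main model, so this spread includes differences between slides. Alternatives covered background, normalisation, filter, probe, variance model, source of ratios, the repeated array, slide and replicate blocks and leaving out each animal.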

Additional observations from a re-analysis of the deposited data

How the results depend on the processing

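The differences of the members from control were recomputed under 14 other settings and within each slide, and most lost calls came from centring each array on its median in place of loess. Feature Extraction ratios moved the sizes most, upwards for Cxcl1, Cxcl3 and Cxcl5. Median centring called 1065 features in NM 401 high, 62 in NM 401 low, 121 in Mitsui high and 74 in Mitsui low, 8 between the NM 401 doses, and 0 between the materials at the high dose and for the interaction. Under it these members were no longer called: in NM 401 low Cxcl3 (0.52) and Ppbp (-1.38), in Mitsui high Cxcl1 (1.11), Cxcl3 (0.39), Cxcl5 (1.74) and Ppbp (-1.43), and in Mitsui low Cxcl1 (1.60), Cxcl3 (0.50), Cxcl15 (0.14) and Ppbp (-1.54). Signs turned for Pf4 in NM 401 high (0.10) and Mitsui low (-0.06) and for Cxcl15 in NM 401 low (-0.09) and Mitsui high (-0.01), for Cxcl15 (0.35), Pf4 (0.44) and Cxcr2 (0.06) between the NM 401 doses, and for Cxcl15 (0.28), Pf4 (0.33) and Cxcr2 (0.01) between the materials at the high dose. None of these turned values was called before or after. Cxcl3 in Mitsui high was also not called without background correction (0.33), with Feature Extraction ratios (1.28), with the authors' values (0.32) and with the second array of the repeated animal (0.30).

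With an offset of 10, 104 features were called between the materials at the high dose and 5 for the interaction, and without the filter on dim probes 94 and 3. Feature Extraction ratios gave 39 and 16, with 1 between the materials at the low dose, and the authors' values 14 for the interaction. With slide as a block the counts were 1552 between the NM 401 doses, 15 between the Mitsui doses, 508 between the materials at the high dose and 118 for the interaction. With the second array of the repeated animal alone, chosen after seeing the data, they were 1521, 14, 484 and 131. Signs of uncalled differences also turned for Cxcl3 between the materials at the low dose (offset of 10, -0.05; second array, -0.02), and with Feature Extraction ratios for Pf4 in Mitsui high (0.01), for Ppbp (-0.10) and Cxcr2 (-0.13) between the Mitsui doses and for Cxcr2 between the materials at the low dose (-0.03). With the slide block Cxcr2 between the NM 401 doses was 0.03, and with the second array too 0.04, -0.03 between the materials at the low dose and 0.01 for the interaction.

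Replicate numbers did not pair animals: same-numbered animals of different groups correlated at -0.38 to 0.41 with a median of -0.00. A replicate block changed the count between the Mitsui doses to 1 and for the interaction to 1, and ended the call of Cxcl5 between the materials at the high dose (1.63, adjusted p = 0.057). Leaving out each animal gave 6941 to 8123 features in NM 401 high, 2923 to 4003 in NM 401 low, 4402 to 5643 in Mitsui high and 4015 to 4975 in Mitsui low. Between doses it gave 182 to 1229 for NM 401 and 0 to 3 for Mitsui XNRi-7, between materials 6 to 919 at the high and 0 to 3 at the low dose, and 1 to 197 for the interaction. Member differences ran from 0.23 to 0.35 for Cxcl3 in Mitsui high, -0.02 to 0.13 for Cxcl15 in NM 401 high, -0.29 to -0.11 for Pf4 in NM 401 high, -0.10 to 0.03 for Pf4 and -0.50 to 0.04 for Cxcr2 in Mitsui high. Uncalled differences that changed sign ran from -0.15 to 0.01 for Cxcl15, -0.12 to 0.06 for Pf4 and -0.19 to 0.04 for Cxcr2 between the NM 401 doses, -0.15 to 0.24 for Ppbp and -0.21 to 0.32 for Cxcr2 between the Mitsui doses, -0.17 to 0.21 for Cxcl1, -0.01 to 0.08 for Cxcl3 and -0.06 to 0.19 for Cxcr2 between the materials at the low dose, -0.34 to 0.20 for Cxcr2 at the high dose and -0.41 to 0.13 for its interaction. Within slides, with 1 or 2 animals a group, the differences from control that lay further than the largest group SD from those over all slides were, for Cxcl1, 1.14 and 3.16 in NM 401 high, 2.71 in NM 401 low, 2.04 in Mitsui high and 2.88 in Mitsui low; for Cxcl3, 0.24 and 0.82 in NM 401 low, 0.53 in Mitsui high and 0.85 in Mitsui low; for Cxcl5, 1.73 and 4.65 in NM 401 high, 5.04 in NM 401 low, 3.44 and 1.08 in Mitsui high and 1.93 and 3.93 in Mitsui low; for Ppbp -0.24 in Mitsui high; and for Cxcr2 0.70 in NM 401 low and -1.58 in Mitsui high. The cause of these changes was not tested. Signal over background limits Cxcl2 and Cxcl3, and the reference signal limits Cxcl3, Cxcr2 and Ppbp.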
